A study of Mus musculus with 6 samples.

Results

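Immunoglobulin gene segments are the germline building blocks of antibodies, and they were followed here in the dental pulp of WT and MMP13KO mice. The members were the rows that the deposited table types as immunoglobulin genes, with pseudogene types left out, and whose estimated counts summed to 20 or more over all 6 libraries. There were 145 such members among 268 immunoglobulin rows, in a table of 53342 genes. RNA-seq was run on pulp from 3-month C57BL/6 mice, with 3 WT libraries (replicates 2, 4 and 5) and 3 libraries of homozygous MMP13-deficient mice (MMP13KO, replicates 1, 2 and 6). The labels give that strain for every sample, the methods describe male mice and give the background for the knockouts, and no other allele or agent is named. The labels name a column kit and molars where the methods name TRIzol and incisors. Molars stand in the growth note of both genotypes, but only in the sample titles of WT, so a difference in tooth type between the genotypes could not be told apart from genotype if there was one. The sum that chose the members pooled both genotypes, and the members are described with earlier results of these libraries known.

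An antibody consists of paired heavy and light chains. In a developing B cell, 1 variable (V) segment is cut and joined to a joining (J) segment, with a diversity (D) segment between them in the heavy chain, and the joined exon is then spliced to a constant (C) segment. The light chain comes from the kappa or the lambda locus. The heavy-chain C segment sets the isotype: Ighm and Ighd are used by naive B cells, and switching of the locus brings in Ighg1, Ighg2b, Ighg2c, Ighg3, Ighe or Igha, the last encoding the heavy chain of IgA. In mice most light chains are kappa. B cells display the antibody on their surface and plasma cells secrete it in bulk, so that a few plasma cells can supply much immunoglobulin RNA. Bulk RNA cannot separate the number of such cells from the RNA in each, and it cannot tell which heavy chain was paired with which light chain.

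All 77 heavy-chain members lay on the minus strand of chr12:113254830-116000461 (mm10), the 61 kappa members on chr6:67555497-70726966 and the 7 lambda members on chr16:19061618-19260859. C segments made up 12 of the 13 C rows of the table, V segments 124 of 222, J segments 9 of 14 and D segments none of 19. Coding sequences were taken from GENCODE M21, which annotates the same assembly. The first set shows 4 V segments that took large shares of the V counts in MMP13KO 1. Ighv11-2 lay at chr12:114048241-114048812 on the minus strand, Ighv6-6 at chr12:114434788-114435244 on the minus strand, Igkv14-126 at chr6:67896172-67896642 on the plus strand and Igkv4-63 at chr6:69377944-69378472 on the minus strand. Of each, the last 300 bases of the coding sequence are printed, up to the end that is joined. Capitals mark the last match of the coding strand to TANTNNTGN, which holds the codons of the conserved tyrosine and cysteine that precede the join.
Ighv11-2: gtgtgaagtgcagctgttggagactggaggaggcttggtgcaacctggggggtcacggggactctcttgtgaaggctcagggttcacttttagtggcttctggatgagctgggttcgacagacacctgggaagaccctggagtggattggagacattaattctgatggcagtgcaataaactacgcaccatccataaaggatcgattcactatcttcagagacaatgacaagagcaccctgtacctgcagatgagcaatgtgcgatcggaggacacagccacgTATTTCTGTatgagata
Ighv6-6: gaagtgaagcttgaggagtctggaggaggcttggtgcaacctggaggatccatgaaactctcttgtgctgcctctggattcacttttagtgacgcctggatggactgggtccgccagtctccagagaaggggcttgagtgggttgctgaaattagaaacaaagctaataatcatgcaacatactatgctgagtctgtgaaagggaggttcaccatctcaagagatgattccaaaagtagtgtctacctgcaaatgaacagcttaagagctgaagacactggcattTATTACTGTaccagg
Igkv14-126: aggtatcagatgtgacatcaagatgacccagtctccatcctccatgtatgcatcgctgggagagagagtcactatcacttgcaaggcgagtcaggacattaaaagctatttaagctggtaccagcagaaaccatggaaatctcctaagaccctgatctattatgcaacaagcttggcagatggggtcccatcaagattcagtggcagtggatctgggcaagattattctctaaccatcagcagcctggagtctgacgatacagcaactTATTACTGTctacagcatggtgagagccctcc
Igkv4-63: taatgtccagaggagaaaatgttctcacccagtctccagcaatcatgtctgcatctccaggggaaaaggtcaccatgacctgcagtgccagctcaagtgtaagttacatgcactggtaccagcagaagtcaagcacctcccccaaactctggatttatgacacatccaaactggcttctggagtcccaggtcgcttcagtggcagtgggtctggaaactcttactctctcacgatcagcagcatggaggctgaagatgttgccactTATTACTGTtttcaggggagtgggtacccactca
That motif stood in the last 40 bases of 122 of the 124 V members (98.4%), against 3.97% of the last 40 bases of the longest transcript of all annotated genes.

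The J segments are short, and they are shown because each set carries the same short motif in every member. Ighj1 lay at chr12:113429781-113429833, Ighj2 at chr12:113429468-113429567, Ighj3 at chr12:113429085-113429132 and Ighj4 at chr12:113428514-113428567, all on the minus strand. Igkj1 lay at chr6:70722562-70722599 and Igkj2 at chr6:70722916-70722958, both on the plus strand. Capitals mark TGGGGN in the heavy and TTCNGN in the kappa segments, the codons of the tryptophan or phenylalanine and the glycine that open the last framework of the chain.
Ighj1: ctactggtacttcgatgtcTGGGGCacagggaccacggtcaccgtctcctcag
Ighj2: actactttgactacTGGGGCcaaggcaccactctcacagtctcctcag
Ighj3: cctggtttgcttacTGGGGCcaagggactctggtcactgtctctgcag
Ighj4: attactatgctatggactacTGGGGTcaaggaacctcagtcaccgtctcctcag
Igkj1: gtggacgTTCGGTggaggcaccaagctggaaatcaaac
Igkj2: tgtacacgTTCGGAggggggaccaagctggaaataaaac
The first motif was found in 4 of 4 heavy J members and the second in 5 of 5 light J members, on the coding strand of the whole segment, against 2.80% and 11.7% of the last 40 bases of all genes. Iglc2 (chr16:19198396-19200351) and Iglc3 (chr16:19065230-19065681), lambda C segments on the minus strand, are printed over their last 300 coding bases to show how alike they are, with capitals where the aligned sequences differ or 1 of them has no base.
Iglc2: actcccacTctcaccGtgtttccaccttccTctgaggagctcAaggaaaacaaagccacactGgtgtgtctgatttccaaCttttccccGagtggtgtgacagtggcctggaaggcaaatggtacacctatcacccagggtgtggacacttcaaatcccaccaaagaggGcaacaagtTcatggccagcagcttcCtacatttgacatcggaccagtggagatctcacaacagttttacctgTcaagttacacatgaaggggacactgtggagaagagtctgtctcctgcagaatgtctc
Iglc3: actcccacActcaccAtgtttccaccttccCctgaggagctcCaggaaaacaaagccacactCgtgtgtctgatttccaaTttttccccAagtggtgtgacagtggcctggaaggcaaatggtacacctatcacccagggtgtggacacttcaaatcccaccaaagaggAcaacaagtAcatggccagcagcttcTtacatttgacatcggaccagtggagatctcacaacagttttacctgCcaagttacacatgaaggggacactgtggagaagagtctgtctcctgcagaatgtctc
Over the whole coding sequence they were identical at 303 of 315 aligned positions (96.2%), whereas Iglc1 matched them at 73.4% and 74.2%. Iglv1 and Iglv2 matched at 96.9%, and the pair Ighg2b and Ighg2c at 87.7%, the highest of the 6 pairs of Ighg segments. Fragments from such pairs could have been split between them by the authors' counting, so the division of counts within Iglc2 and Iglc3 or within Iglv1 and Iglv2 is uncertain.

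Total counts were 28442936 to 29980236 in the WT libraries and 21561420 to 26547121 in the MMP13KO libraries. Mmp13 itself stood at 36.8, 39.1 and 30.1 TMM CPM (counts scaled to a common library size by the TMM method) in WT 2, 4 and 5 and at 0.322, 1.10 and 2.33 in MMP13KO 1, 2 and 6. MMP13KO 6 stood apart, with 48.6% of its counts in the 10 genes of highest mean share over the 6 libraries. In the other libraries the same 10 genes held 21.3% to 25.6%. Odorant and vomeronasal receptor genes, which pulp is not known to use, gave a background of 0.0947 to 0.116 counts per kb of exon in WT and of 1.5, 1.76 and 4.80 in MMP13KO 1, 2 and 6. V pseudogene rows held 2.17, 2.24 and 5.93 counts per kb in the same MMP13KO libraries, and the V members 65.3, 51.0 and 33.5. Above the background of their own library stood 142, 141 and 143 of the 145 members in MMP13KO 1, 2 and 6, by a median of 24.7, 19.5 and 5.88 times. The members were chosen on their summed counts and the receptor and pseudogene rows were not. Both comparisons were therefore largely fixed by the sum rule. V rows under the sum limit held 4.97, 5.73 and 9.01 counts per kb in MMP13KO 1, 2 and 6.

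Immunoglobulin RNA was higher in the MMP13KO pulp. The summed level of all members was 103, 153 and 164 TMM CPM in WT 2, 4 and 5 and 329, 289 and 279 in MMP13KO 1, 2 and 6, so the genotypes did not overlap. The means were 139.9 ± 32.7 and 298.8 ± 26.7 (SD, n = 3 each), a 2.14-fold difference, with no test, since a score over members chosen on these counts gets none. Immunoglobulin segments held 0.00995% to 0.0159% of all counts in WT and 0.0224% to 0.0395% in MMP13KO.

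Gene by gene, 68 members passed the low-count filter and 77 did not. A segment passed the test when its edgeR adjusted p was under 0.05 and its level differed by over 2-fold. By that rule 43 of the 68 were higher in MMP13KO and none was lower, where 20.4% of the 24534 genes tested were higher and 9.68% lower (30.1% in either direction). The median log2 fold change (MMP13KO over WT) of the 68 was 1.87, beside 0.10 for all genes tested. Of the 68, 44 reached the filter's level in every MMP13KO library and not in every WT library, so their direction was largely fixed by the filter. Among the 12 that reached it in every WT library, 8 passed the test as higher. With a filter of 10 counts in every library, 13 members were tested and 10 were higher, against 15.4% of all genes under the same filter. With no filter the median of all genes rose to 1.30, as low-count genes in general were higher in MMP13KO, and that of the 145 members was 1.76. Every MMP13KO library was above every WT library for 47 of the 68, against 31.8% of all genes tested. The reverse was seen for none of the 145 members, while 60.9% of all genes tested did not overlap in either direction. Among all 145 members, every MMP13KO library was above every WT library for 74. No share over all genes was computed at the same sum limit, so that count has no background beside it.

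**Figure D1:**
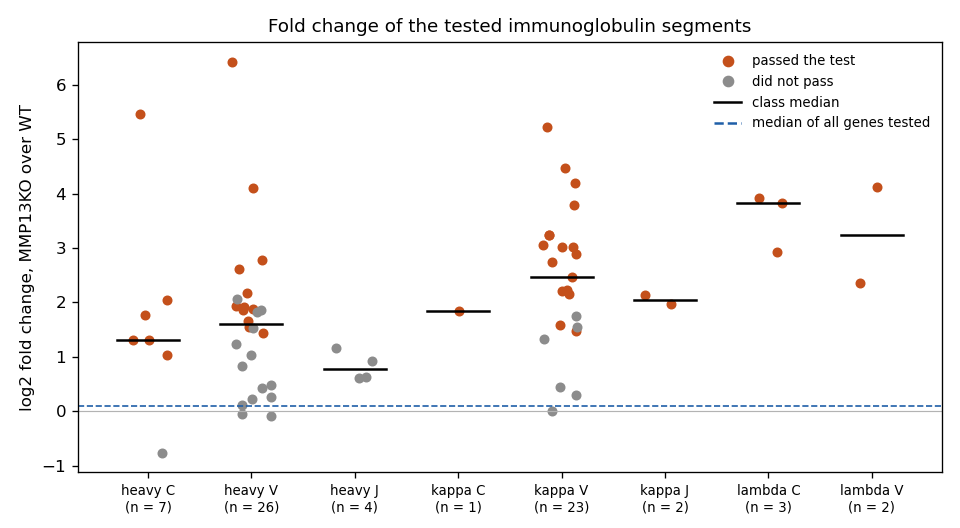
Log2 fold change of MMP13KO over WT for each of the 68 tested segments, by locus and segment type (C constant, V variable, J joining), with the class median as a bar and the median of all genes tested (0.10) as a dashed line. Orange points passed the test; Igha, at -0.77, is the lowest point, and the lambda C and kappa V medians (3.83 and 2.47) lie above those of heavy C and heavy V (1.31 and 1.61).

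Among the heavy-chain C segments, 6 of the 7 tested were higher in MMP13KO, and Igha, the most abundant one per library in WT 4 and 5, went the other way without passing the test. Ighm, the C segment of IgM, stood at 35.7, 33.1 and 38.7 TMM CPM in WT 2, 4 and 5 and at 106, 102 and 59.2 in MMP13KO 1, 2 and 6 (log2 fold change 1.31 ± 0.21 SE, adjusted p = 0.00086). The genotypes were apart for Ighm, with MMP13KO 6 nearest to WT. Ighd, which is spliced from the same long transcript as Ighm, stood at 0.242, 0.842 and 0.785 in WT and at 2.01, 2.38 and 2.08 in MMP13KO (1.76 ± 0.45, adjusted p = 0.0085). Igha stood at 32.4, 63.9 and 61.0 TMM CPM in WT and at 26.9, 22.2 and 43.7 in MMP13KO (-0.77 ± 0.30, adjusted p = 0.052). Its genotypes overlapped, since MMP13KO 6 was above WT 2. Without WT 2 the Igha difference passed the test at -1.10 (adjusted p = 0.0066), and without MMP13KO 6 it passed at -1.09 (adjusted p = 0.013). It shrank to -0.28 (adjusted p = 0.53) with a correction for GC content. With upper-quartile factors it was -0.52 (adjusted p = 0.23), and with background subtracted -0.59 (adjusted p = 0.16). By DESeq2 it was -0.82 (adjusted p = 0.017) and by edgeR with no filter -0.89 (adjusted p = 9.7e-05), both under the 2-fold limit. By limma it was -0.82 (adjusted p = 0.11).

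The Ighg segments, which encode the IgG heavy chains, were all higher in MMP13KO. Summed, they stood at 8.59, 9.79 and 17.4 TMM CPM in WT and at 34.1, 33.4 and 33.0 in MMP13KO, a 2.81-fold difference between means. Ighg3 showed the largest difference of the 4. It had 10, 0 and 0 estimated counts in WT 2, 4 and 5 and 241, 52.8 and 117 in MMP13KO 1, 2 and 6, which is 0.344, 0 and 0 against 7.64, 1.76 and 6.77 TMM CPM (5.47 ± 0.91, adjusted p = 0.00095). The size of this value rests on WT 2: without it both other WT libraries are at 0 and the fitted value, 10.15, depends on the prior count, while without WT 4 or WT 5 it was 4.85. Ighg1, the IgG class of many T-cell-dependent responses, stood at 0.482, 0.695 and 1.96 in WT and at 5.48, 3.91 and 3.44 in MMP13KO (2.04 ± 0.46, adjusted p = 0.0047), and without WT 5 the difference was 2.80. Ighg2c, the form that C57BL/6 mice carry in place of Ighg2a, stood at 4.80, 2.18 and 5.63 against 9.37, 10.3 and 11.5 (1.30 ± 0.30, adjusted p = 0.0048). Without WT 4 its difference was 0.95, under the 2-fold limit. Ighg2b had the smallest difference of the 4, at 2.96, 6.91 and 9.84 in WT and 11.6, 17.4 and 11.3 in MMP13KO (1.04 ± 0.36, adjusted p = 0.035). It no longer passed without WT 2 (0.61), WT 4 (1.03, adjusted p = 0.089) or MMP13KO 2 (0.74), nor by DESeq2 (0.99), with no filter (0.93) or by limma (1.11, adjusted p = 0.092). Ighe, the C segment of IgE, was below the filter, with 0, 2 and 4 counts in WT and 3.87, 12.3 and 12.3 in MMP13KO.

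**Figure D2:**
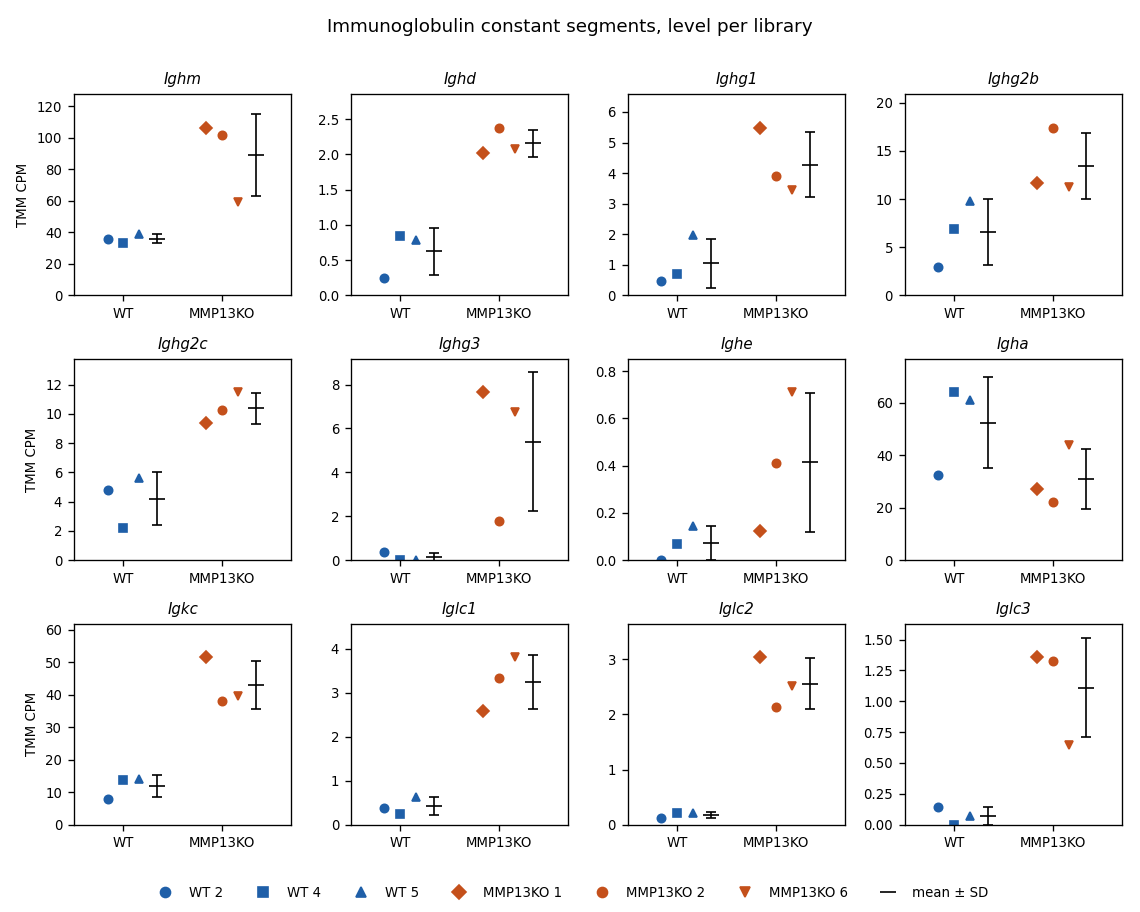
Level of each of the 12 constant segments in TMM CPM, on axes that start at 0, with 1 point per library and the mean ± SD of each genotype (n = 3). The MMP13KO libraries lie above all WT libraries for 10 segments, and the genotypes overlap for Igha and Ighe.

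The isotype make-up of the heavy-chain counts differed between the libraries. Igha took 42.1% (95% Wilson interval 40.1 to 44.2), 59.3% (57.6 to 61.0) and 51.7% (49.9 to 53.4) of the heavy C counts in WT 2, 4 and 5. In MMP13KO 1, 2 and 6 it took 15.9% (14.9 to 16.9), 13.9% (12.9 to 14.9) and 31.5% (29.7 to 33.4). Each MMP13KO share was below each WT share. The share of Ighm was 46.4%, 30.7% and 32.8% in WT and 62.7%, 63.5% and 42.7% in MMP13KO, and there the genotypes overlapped, since WT 2 was above MMP13KO 6. These intervals cover counting error only, and both mates of a fragment were counted. Switched C segments (Ighg, Ighe and Igha) summed to 41.0, 73.8 and 78.5 TMM CPM in WT and to 61.2, 56.0 and 77.4 in MMP13KO, a 1.01-fold difference, while Ighm and Ighd together were 2.50-fold higher in MMP13KO. The ratio of switched to unswitched was 1.14, 2.17 and 1.99 in WT and 0.565, 0.538 and 1.26 in MMP13KO, a log2 difference of -1.23. WT 2 and MMP13KO 6 overlapped in it, and without MMP13KO 6 the difference was -1.63.

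All 4 light-chain C members were higher in MMP13KO, each with a larger fitted difference than Ighm. Igkc, the single C segment of the kappa locus, stood at 7.95, 13.8 and 14.1 TMM CPM in WT 2, 4 and 5 and at 51.5, 38.0 and 39.5 in MMP13KO 1, 2 and 6 (1.85 ± 0.23 SE, adjusted p = 0.00021). The lambda C segments had larger fitted differences from a lower level. Iglc1 stood at 0.382, 0.247 and 0.638 in WT and at 2.59, 3.35 and 3.81 in MMP13KO (2.92 ± 0.40, adjusted p = 0.00033). Iglc2 stood at 0.117, 0.206 and 0.211 against 3.04, 2.13 and 2.51 (3.83 ± 0.42, adjusted p = 0.00014), and Iglc3 at 0.142, 0 and 0.0728 against 1.36, 1.33 and 0.647 (3.92 ± 0.79, adjusted p = 0.0026). Iglc3 was 4.74 without WT 2 and 3.31 without WT 4. These 3 passed the test under every alternative in which they were tested. Since fragments of Iglc2 and Iglc3 can be exchanged, their sum with Iglc1 is the firmer value: 0.641, 0.453 and 0.922 TMM CPM in WT and 6.99, 6.81 and 6.97 in MMP13KO, a 10.3-fold difference. Lambda took 7.6%, 3.14% and 6.05% of the light C counts in WT and 12.0%, 15.2% and 15% in MMP13KO. In WT 4 that share rested on 13 of 414 counts (95% Wilson interval 1.84 to 5.30).

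The balance of heavy to light chains differed between the genotypes. The ratio of heavy to light C levels was 8.96, 7.58 and 7.85 in WT 2, 4 and 5 and 2.90, 3.57 and 2.98 in MMP13KO 1, 2 and 6, without overlap, for a log2 difference of -1.37. Part of this was carried by Igha: without it the ratios were 5.18, 3.08 and 3.79 in WT and 2.44, 3.07 and 2.04 in MMP13KO, and the log2 difference was -0.66, with WT 4 and MMP13KO 2 almost equal. The V segments, which do not include Igha, differed in the same direction. Their heavy to light ratio was 1.63, 1.51 and 1.5 in WT and 0.765, 0.766 and 0.959 in MMP13KO, a log2 difference of -0.90. On a scale per kb of exon, the summed heavy C level exceeded the light one in each WT library (36.3 against 16.3, 46.5 against 26.7 and 52.5 against 28.4 CPM per kb). In MMP13KO the light C level was the higher in each library, with 111 against 84.1, 85.3 against 80.2 and 88.1 against 66.2 CPM per kb. By genotype mean on that scale, the order in WT was Igkc (22.4), Igha (19.7) and Ighm (19.0), which lay within their spread, and in MMP13KO Igkc (80.9), Ighm (47.2) and Igha (11.6). The kappa to lambda ratio of C levels was 12.4, 30.3 and 15.3 in WT and 7.38, 5.59 and 5.66 in MMP13KO, a log2 difference of -1.54. No test was run on these ratios, and 3 libraries against 3 set a lower limit on a 2-sided exact permutation p that is above the usual threshold.

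**Figure D3:**
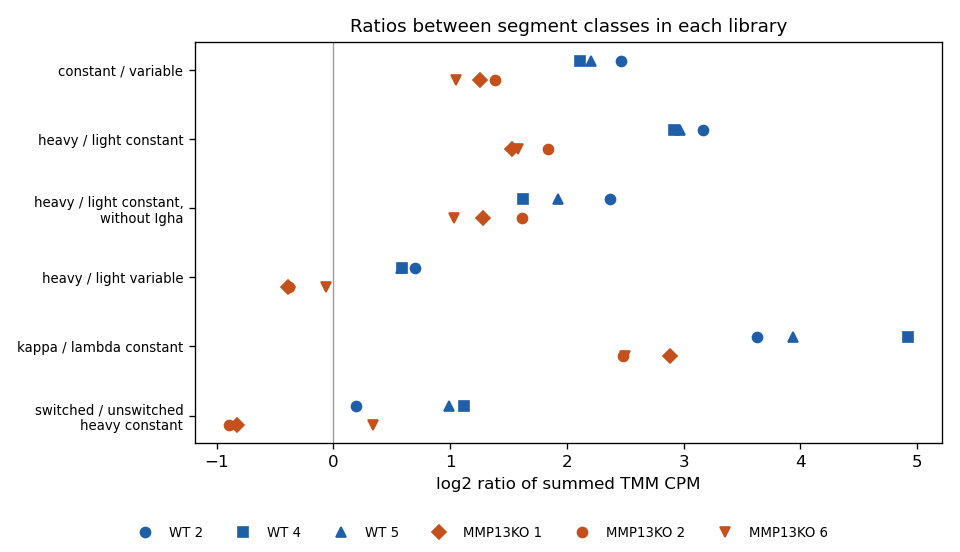
Log2 ratio of summed TMM CPM between segment classes in each library, with WT in blue and MMP13KO in orange. MMP13KO lies to the left of WT without overlap in the first 5 ratios, narrowly so for heavy over light without Igha, and MMP13KO 6 overlaps WT 2 in the switched to unswitched ratio.

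Constant and variable segments were both higher in sum in MMP13KO, the variable ones by the larger fold. The 12 C members summed to 85.5, 122 and 133 TMM CPM in WT and to 228, 205 and 185 in MMP13KO, a 1.81-fold difference of means. The 124 V members summed to 15.5, 28.1 and 28.7 in WT and to 95.2, 78.3 and 89.1 in MMP13KO, a 3.63-fold difference. The ratio of C to V was 5.52, 4.34 and 4.63 in WT and 2.39, 2.62 and 2.08 in MMP13KO (log2 difference -1.03), and its genotypes did not overlap. Igha bore on this ratio too, since without it the log2 difference was -0.39. Within the kappa locus, which has no such segment, the C to V ratio was 1.51, 1.32 and 1.30 in WT and 1.07, 0.975 and 0.941 in MMP13KO (log2 difference -0.47). Within the lambda locus it was 0.991, 0.551 and 1.49 against 1.24, 1.29 and 1.97, where the genotypes overlapped and the difference was positive (0.65). By count, 10 of 11 tested C segments, 31 of 51 V segments and 2 of 6 J segments passed the test as higher, with medians of 1.85, 1.88 and 1.04. By locus, 18 of 37 heavy members (median 1.44), 20 of 26 kappa members (2.22) and 5 of 5 lambda members (3.83) did so. Of all genes tested, 20.4% were higher. The class counts lean on the low-count filter. Of the 43 passing members, 32 reached its level in every MMP13KO library and not in every WT library. The classes were not tested against each other.

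**Figure D4:**
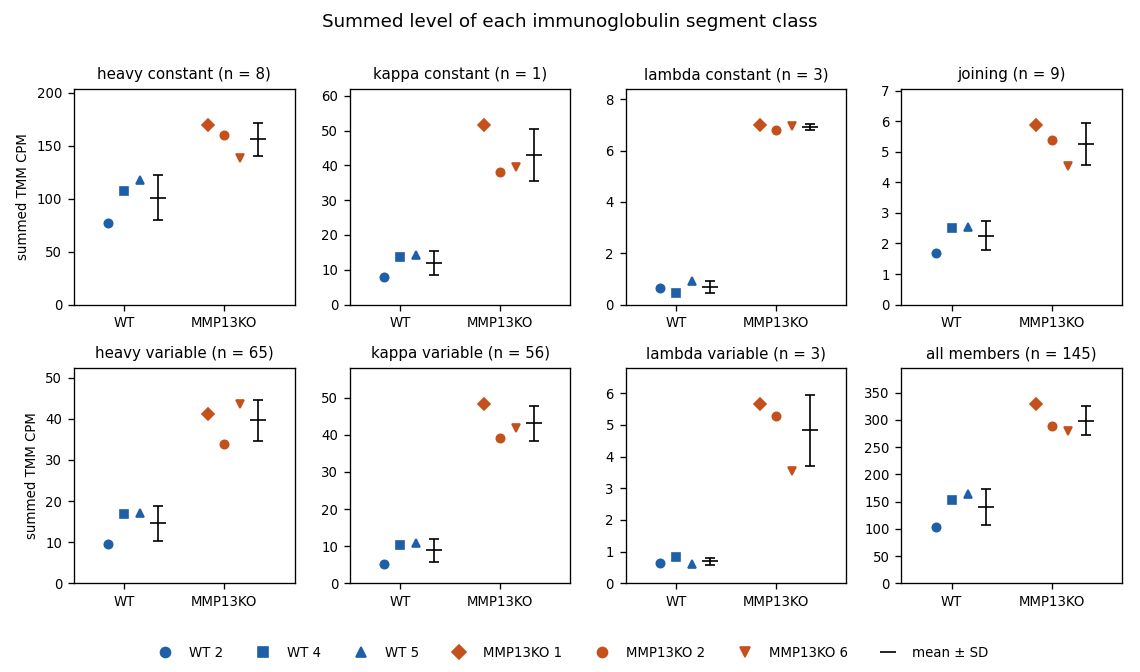
Summed TMM CPM of each segment class in each library, on axes that start at 0, with the mean ± SD of each genotype (n = 3) and the number of segments in each class. The MMP13KO libraries lie above all WT libraries in each of the 8 panels, from a 1.55-fold difference of means for heavy constant to 10.3-fold for lambda constant.

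Each V segment on its own was rare, and the libraries differed in which ones they held. The 65 heavy V members summed to 9.60, 16.9 and 17.2 TMM CPM in WT and 41.3, 34.0 and 43.6 in MMP13KO, the 56 kappa V members to 5.26, 10.4 and 10.9 against 48.3, 39.0 and 42.0, and the 3 lambda V members to 0.647, 0.823 and 0.620 against 5.66, 5.28 and 3.54. Over 3 counts were seen for 54, 68 and 82 of the 124 V members in WT 2, 4 and 5 and for 109, 107 and 109 in MMP13KO 1, 2 and 6. The members were chosen on the sum of these same counts, and no share over all genes was computed. These numbers are therefore no measure of how many V segments each genotype used. Iglv1, the V segment with the highest mean level, is 1 of only 3 in the lambda locus. It stood at 0.566, 0.755 and 0.620 TMM CPM in WT and 3.27, 3.97 and 2.71 in MMP13KO (2.37 ± 0.31, adjusted p = 0.00026). Igkv1-117 was among the leading kappa segments in WT, at 0.453, 1.64 and 0.655, and stood at 1.52, 1.7 and 3.88 in MMP13KO (1.34 ± 0.54, adjusted p = 0.060). Its genotypes overlapped, and it passed only when WT 4 (2.03) or MMP13KO 1 (1.51) was left out, with total-count factors, with no filter or with 10 counts in every sample. Igkv1-110 stood at 0.438, 0.819 and 0.945 against 1.98, 3.17 and 1.5 (1.59 ± 0.41, adjusted p = 0.0093), and without MMP13KO 2 it fell short (1.19, adjusted p = 0.063).

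MMP13KO 1 was set apart by 4 segments. Ighv6-6 had 203 of its counts there, 15.6% of all heavy V counts of the library (95% Wilson interval 13.7 to 17.6), where WT 2, 4 and 5 held 1.33, 0 and 11.2 counts and MMP13KO 2 and 6 held 12.4 and 10.5. It passed the test (4.10 ± 1.26, adjusted p = 0.020), but without MMP13KO 1 the difference was 1.66 (adjusted p = 0.27), and without WT 2 or WT 4 it was 3.58 or 3.48 and no longer passed, nor did it with the GC correction (3.88) or by limma (3.68). Without WT 5, the WT library that held most of its WT counts, it was 6.80. Ighv11-2 took 11% of the heavy V counts of MMP13KO 1 (9.39 to 12.8). It had 0, 2 and 0 counts in WT and 143, 40.3 and 20.6 in MMP13KO, at least 22.4-fold higher in MMP13KO when WT is set at 3 counts per library, and it passed the test under every alternative in which it was tested. Its fitted log2 value, 6.42, which depends on the prior count, was 5.46 without MMP13KO 1 and 9.0 without WT 4. Igkv14-126 took 12.8% of the kappa V counts of MMP13KO 1 (11.3 to 14.6). It had 1.87, 2 and 3.78 counts in WT and 196, 70.3 and 5.86 in MMP13KO, and it did not pass the low-count filter because MMP13KO 6 was low. Igkv4-63, picked for description after its values were seen, had 175 counts in MMP13KO 1, 1.72 in MMP13KO 2 and 0 in each other library, so 99.0% of its MMP13KO level came from 1 library. In the mouse, Ighv11-2 with Igkv14-126 is known as a recurrent receptor of B-1 cells that bind phosphatidylcholine. Both had their highest level in MMP13KO 1 and their second highest in MMP13KO 2, and pairing of the chains could not be seen in these data.

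MMP13KO 2 was led by other segments. Ighv1-26, of the large Ighv1 family, stood at 0.525, 0.847 and 0.811 TMM CPM in WT and at 2.08, 3.78 and 0.918 in MMP13KO (1.66 ± 0.49, adjusted p = 0.018), and took 11.2% of the heavy V counts of MMP13KO 2. Ighv1-9 stood at 0.0689, 0.523 and 0.269 against 0.292, 3.22 and 2.36 (2.78 ± 0.86, adjusted p = 0.021). In both, 1 MMP13KO library was close to or within the WT range, and neither passed without WT 2 (1.40 and 2.24) or without MMP13KO 2 (1.02 and 2.12), nor by limma (1.38 and 2.55). Ighv1-9 was 3.53 without WT 4. Igkv12-44 took 9.99% of the kappa V counts of MMP13KO 2 and Igkv6-15 took 9.5% of those of MMP13KO 1, both also picked after their values were seen. Over 75% of the summed MMP13KO level lay in 1 library for 14 of the 124 V members, 8 of them in MMP13KO 1. The median share of the highest MMP13KO library was 53.1% for V members, 40.3% for C members and 41.5% for J members. The 3 leading heavy V segments together held 31.6%, 27.3% and 14.4% of the heavy V counts in MMP13KO 1, 2 and 6 and 19.3%, 19.0% and 14.6% in WT 2, 4 and 5. For kappa V the same share was 33.9%, 24.1% and 19.3% in MMP13KO and 31.3%, 30.6% and 20.7% in WT, so the genotypes overlapped for both loci.

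**Figure D5:**
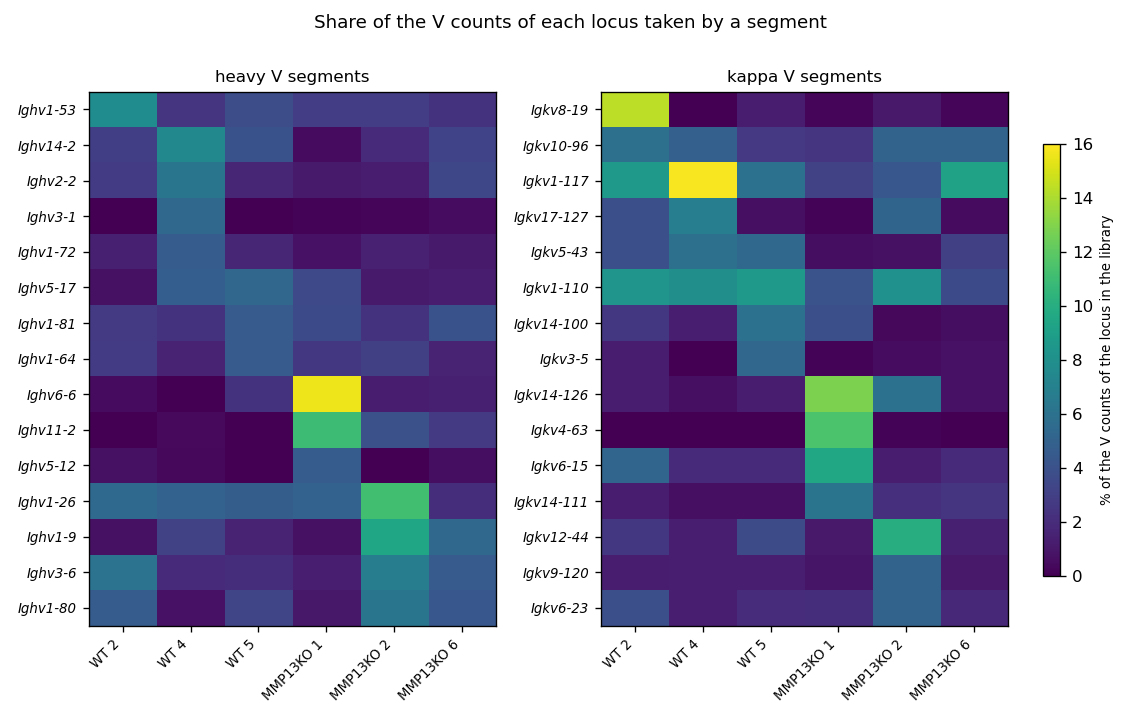
Share of the heavy (left) or kappa (right) V counts that each of 15 segments took in each library, in percent, for the segments with the highest share in any library, ordered by the library in which they peak. Ighv6-6, Ighv11-2, Igkv14-126 and Igkv4-63 are bright in MMP13KO 1, whereas Igkv1-110 is spread over the libraries.

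By family, the 33 Ighv1 members took 53.3%, 48.5% and 52.4% of the heavy V level in WT and 34.0%, 59.9% and 51.7% in MMP13KO, which overlapped. Their summed level was 5.12, 8.20 and 9.02 TMM CPM in WT and 14.0, 20.3 and 22.5 in MMP13KO. By position along the locus the genotypes overlapped as well. The 32 heavy V members nearer the J segments took 45.9%, 51.0% and 44.6% of the heavy V level in WT and 64.6%, 39.4% and 45.8% in MMP13KO. Among the 51 V members past the low-count filter, Ighv1-18 and Ighv14-2 had a fitted difference below 0. They stood at -0.09 (adjusted p = 0.91) and -0.05 (adjusted p = 0.96), and both changed sign between alternatives. Of all 124 V members, 114 had the higher mean in MMP13KO. That count has no share over all genes at the same sum limit beside it, and low-count genes in general were higher in MMP13KO. With no filter, some rarer V members were also below 0, such as Ighv3-1 (-1.49, adjusted p = 0.31) and Ighv1-62-2 (-1.30, adjusted p = 0.43), without passing.

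Calls among the J segments depended on the setting. Of the 4 Ighj members none passed the test, with log2 fold changes of 0.93 for Ighj1 (adjusted p = 0.16), 0.63 for Ighj2 (0.26), 1.16 for Ighj3 (0.079) and 0.62 for Ighj4 (0.32). Ighj2 stood at 0.561, 0.436 and 0.824 TMM CPM in WT and 0.949, 0.955 and 0.939 in MMP13KO. Without MMP13KO 6, Ighj1 (1.16, adjusted p = 0.041) and Ighj3 (1.33, adjusted p = 0.023) passed, and both also passed with a correction for GC content (1.98 and 2.09). Ighj3 passed as well with upper-quartile factors (1.34), with background subtracted (1.27) and by limma (1.02). Igkj2 stood at 0.112, 0.185 and 0.0589 against 0.659, 0.414 and 0.515 (2.14 ± 0.63, adjusted p = 0.017) and Igkj1 at 0.0297, 0.231 and 0.127 against 0.582, 0.490 and 0.433 (1.96 ± 0.70, adjusted p = 0.038). These rested on at most 6.74 counts per WT library, and both passed among the leave-one-out fits only without MMP13KO 6, and neither passed by DESeq2 or with no filter. The difference between heavy and kappa J segments was itself not tested. Igkj4, Igkj5 and Iglj1 had at most 3.25 counts in any WT library and 4.57 to 16.5 in the MMP13KO libraries.

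Genes that accompany immunoglobulin expression moved with the segments for the B cell lists, and less evenly for the plasma cell list. Of the 12 mature B cell genes, 11 were higher in MMP13KO and none was lower (median 1.87), where 20.4% of all genes tested were higher. Pax5, the factor that keeps B cell identity, stood at 1.96, 4.66 and 3.48 TMM CPM in WT and 11.1, 12.3 and 10.1 in MMP13KO (1.72 ± 0.28, adjusted p = 0.00079). All 6 tested genes of B cell precursors were higher (median 2.84). Rag1, a subunit of the recombinase that cuts V, D and J segments, stood at 1.10, 1.98 and 1.73 against 12.9, 16.9 and 5.96 (2.89 ± 0.38, adjusted p = 0.00027), and Vpreb3, which binds light chains in the B cell lineage, differed by 1.55 ± 0.34 (adjusted p = 0.0039). Of the 12 recombination and switching genes 7 were higher and none lower. Prkdc, the kinase of end joining, differed by 1.24 ± 0.20 (adjusted p = 0.00072) and stayed under 2-fold with the GC correction (0.85), while Xrcc6, a DNA-end binding partner, differed by 0.25 ± 0.16 and did not pass.

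The plasma cell list was mixed, with 3 of 9 tested genes higher and 1 lower, not far from the 20.4% and 9.68% of all genes tested. Jchain, which links IgM and IgA into polymers, stood at 2.0, 1.85 and 3.49 in WT and 16.8, 13.9 and 18.2 in MMP13KO (2.73 ± 0.25, adjusted p = 7.8e-05). Mzb1 (1.28), which helps immunoglobulin assembly, and Irf4 (1.92), a factor of plasma cell fate, were the other two, named after their values were seen. Prdm1 (-0.59) and Derl3 (-0.73) had every MMP13KO library below every WT library, and Fkbp11 (0.43) had every one above. Creld2 (-0.28) overlapped between the genotypes. None of these passed, and they too were named after their values were seen. Sdc1, a surface proteoglycan that epithelia carry too, was lower at -1.11 ± 0.22 (adjusted p = 0.0023), and Xbp1, a factor of the secretory response also active outside plasma cells, stood at 68.9, 77.0 and 76.9 against 75.1, 65.7 and 64.8 (-0.12 ± 0.14). Sdc1 did not pass with the GC correction (-0.38), with upper-quartile factors (-0.90), with 10 counts in every sample (-0.99) or with background subtracted (-0.95). Of 9 tested receptors of immunoglobulin 6 were higher and none lower. Pigr was 1 of the 6, with 92.8% of its MMP13KO level in MMP13KO 6, and was named after its values were seen. Fcgr2b, the inhibitory IgG receptor of B cells and myeloid cells, stood at 4.54, 6.08 and 5.28 against 14.6, 15.4 and 14.3 (1.48 ± 0.16, adjusted p = 0.00015). Fcgrt, which protects IgG from breakdown, differed by -0.52 ± 0.16 and stayed under 2-fold, with every MMP13KO library below every WT library.

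Markers of other blood cells moved in the same libraries. All 8 neutrophil genes were higher in MMP13KO, with a summed level of 134 to 279 TMM CPM in WT and 710 to 1733 in MMP13KO, and S100a9 differed by 5.19 ± 0.40 (adjusted p = 4.0e-05). Ltf, a neutrophil granule protein, differed by 1.24 ± 0.35 (adjusted p = 0.013) and did not pass without WT 2 (0.89) or MMP13KO 2 (0.90), or by limma (1.17, adjusted p = 0.070). Of 6 erythroid genes 4 were higher, with Hbb-bs at 3.28 ± 0.34 (adjusted p = 0.00012) and Hba-a1, which passed only with the GC correction (1.64), at 0.77 ± 0.27, and of 9 T cell genes 6 were higher, though the T cell genes with the highest levels, Cd247 (0.41) and Cd4 (0.49), did not pass. Of 6 macrophage genes 1 was higher, a share near the 20.4% of all genes. Csf1r differed by 0.44 ± 0.17 and C1qa by -0.00 ± 0.16, and with the GC correction they were 1.10 and 1.02. None of these lists had a member at 0 in all libraries of a genotype other than Vpreb2, which was at 0 in WT. The mature B cell genes summed to 12.2 to 20.5 TMM CPM in WT and 57.6 to 69.4 in MMP13KO. The 6 dental pulp genes did not move one way, with 2 higher, 2 lower and 2 that did not pass. Their sum was 39974 to 47565 TMM CPM in WT and 13217 to 16726 in MMP13KO, most of it Col1a1, a collagen chain (-2.16 ± 0.34, adjusted p = 0.00067). Nes, an intermediate filament protein of odontoblasts, was also lower (-1.21 ± 0.20, adjusted p = 0.00091). Dspp, which encodes the dentin matrix proteins of odontoblasts, was higher (1.13 ± 0.40, adjusted p = 0.037). Its genotypes overlapped, with WT 2 at 1641 TMM CPM and MMP13KO 6 at 1566. Phex was higher too (1.68 ± 0.30, adjusted p = 0.0013), and Sparc, a matrix protein, differed by -0.29 ± 0.24. Nes, Dspp and Phex were picked after their values were seen. The part of these other cell types, of the dental pulp genes and of library background in the immunoglobulin levels was not tested.

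T cell receptor segments, which are assembled by the same recombinase, gave a comparison of like kind. Of 144 T cell receptor V rows none reached a sum of 20, against 124 of 222 immunoglobulin V rows. The 6 T cell receptor C rows that did summed to 3.32, 3.93 and 3.22 TMM CPM in WT and 5.22, 4.61 and 6.79 in MMP13KO, a 1.59-fold difference, and none of the 3 tested passed. At the edge of the sum rule, Igkv13-85 (sum 20.02) and Igkv5-39 (20.8) were the members just inside, and Igkv7-33 (19.7) and Ighv1-63 (19.1) lay just outside. Their MMP13KO libraries held 2.96 to 9.88, 3.22 to 7.77, 1.5 to 13.0 and 0 to 7.70 counts, and no WT library held over 3.91. The 98 V rows under the limit together held 1.03 to 2.06 counts per kb in WT and 4.97, 5.73 and 9.01 in MMP13KO 1, 2 and 6.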

How the data were processed

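RNA-seq of dental pulp was made in 3 WT and 3 MMP13KO samples. The authors deposited estimated counts per gene (mm10, Strand NGS), which need not be whole, and log2 normalized values; both mates were counted, as 86.3% of the whole values above 0 (tolerance 0.001; 9.5% of values) were even. The submitters' notes name DESeq and the methods a gene-by-gene test, whose fold and p columns were not used. Estimated counts were rounded and tested with edgeR 4.0.16 (quasi-likelihood, TMM, filterByExpr by genotype, Benjamini-Hochberg over all genes; R 4.3.3), with no covariate. DESeq2 1.42.0 and limma 3.58.1 (on the deposited log2 values) were alternatives, and all were tested on simulated counts. Levels are unrounded counts per TMM-scaled library size (TMM CPM), summed over members without a test. Depth was 21561420 to 29980236 counts per library, so 3 counts correspond to 0.10 to 0.14 CPM. Replicates are independent biological samples by the methods; whether animals were pooled is not given in the sources used here. Named were all C members, the 8 V members highest in mean CPM, J members past the filter, the 3 lowest in adjusted p among those lower in MMP13KO, rows at the sum limit, and 2 genes highest in mean CPM per list, of which 1 is not reported here. Members and lists were chosen with earlier results of these data known.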

Additional observations from a re-analysis of the deposited data

How the results depend on the processing

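Genotypes share only 1 replicate number. No paired analysis was possible because the genotypes share fewer than 2 replicate numbers. The number of members that passed the test was 43 in the reported fit, 10 of 13 tested with 10 counts in every sample and 26 of 35 among members with a sum of 100 or more; fewer members could be tested in both. Leaving out 1 library gave 29 to 46 passing members (1 of them, Igha, lower without WT 2 or MMP13KO 6). The other alternatives gave 38 to 53. The leave-one-out fits tested 79 to 92 members, against 68 in the reported fit. Without WT 4, 29 of 91 members were higher, beside 4826 of 26952 genes. With no filter it was 53 of 145 members, beside 11258 of 49715 genes. In the reported fit it was 43 of 68 members, beside 5006 of 24534 genes. The summed level (log2 difference 1.09) was 1.45 with a correction for GC content and 1.61 without Igha, and 0.84 to 1.15 with 1 library left out. The constant to variable difference (-1.03) was -1.24 over members with a sum of 100 or more, -0.82 with the GC correction, -0.39 without Igha and -1.11 to -0.93 with 1 library left out. The heavy to light difference (-1.37) was -1.15 with the GC correction, -0.66 without Igha and -1.46 to -1.30 with 1 library left out. For kappa to lambda the leave-one-out range was -1.81 to -1.16 and for switched to unswitched -1.63 to -1.01. The GC correction of sums and ratios, the values without Igha and the factors without the 10 most abundant genes were added after seeing the data; factors without satellite genes were not run, since no file used here marks them. The median of all genes (0.10) became 0.32 by upper quartile, 0.21 by total counts and 0.22 with the GC correction, and that of the members (1.87) became 2.08, 1.96 and 2.08. Signs changed for Ighv1-18 (0.078 by upper quartile, 0.081 by total counts, 0.22 with the GC correction, -0.41 to 0.22 with 1 library left out, above 0 without WT 4 or MMP13KO 6) and Ighv14-2 (0.22 by upper quartile, 0.39 with the GC correction, 0.056 with background subtracted, -0.81 to 0.54 with 1 library left out, above 0 without WT 4 or MMP13KO 1). They also changed for Sparc (0.21) and Fcgrt (0.25) with the GC correction, for Xbp1 (0.094 by upper quartile, 0.00078 by total counts, 0.0080 with 10 counts in every sample, 0.43 with the GC correction, 0.044 with background subtraction) and for C1qa (0.0072 with RLE factors, 0.20 by upper quartile, 0.12 by total counts, 0.12 with 10 counts in every sample, 1.02 with the GC correction, 0.15 with background subtracted, -0.19 to 0.080 with 1 library left out, above 0 without WT 5 or MMP13KO 6). The cause was not tested. With 3 libraries per genotype and most V segments at a few counts, single V segments are the least certain values.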
